A study of Drosophila melanogaster with 4 samples.

Results

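Many Drosophila genes are still known only by the CG number that the genome annotation gave them. In the deposited table of Xbp1 mutant and control larvae, 22 of 7807 such CG-numbered genes stood lower in both mutant libraries than in both control libraries by a set margin. They were selected on these values: the lower of the 2 control values had to be at least 30 normalized counts (the reads of a gene scaled for the depth of the library) and at least 3 times the higher of the 2 mutant values. Because the rule used the contrast between mutant and control, the differences between those groups are given for the members as a description and were not tested as evidence. The table holds 15340 genes, and 20 of the 7533 genes with other names met the same rule, which is 0.265% of them, against 0.282% of the CG-numbered genes. According to the paper, the RNA came from second-instar larvae. Whether the values match that stage was not tested. The mutants were Xbp1 ex79 -/-, homozygous for an imprecise excision that removes part of the coding sequence with the DNA-binding domain. The controls were Xbp1 +/+, a precise excision line from the same insertion, Xbp1 CB02061, so both groups descend from that line. Each genotype was sampled by 2 independent RNA extractions, called mutant 1, mutant 2, control 1 and control 2 here, and the labels give no sex for the larvae.

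XBP1 is a transcription factor made after IRE1, a sensor in the endoplasmic reticulum, splices the Xbp1 mRNA, and it raises the capacity of cells to fold and secrete proteins. Organs with a large secretory output, such as the gut, the fat body and glands, are known to need it. In males the larval testis grows through the larval stages, and its spermatocytes turn on a large set of genes that few other tissues use, under regulators such as aly and can. In RNA of many tissues together, fewer cells of a type and less RNA per cell cannot be told apart.

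The libraries held 37122025 and 38601267 reads on genes in the mutants and 34947910 and 31416284 in the controls. Control 1 stood apart from the other 3 libraries, since 366 of the 10500 tested genes (those averaging at least 10 normalized counts) were at least 3 times as high there as in the next library. The same count was 53 for mutant 1, 3 for mutant 2 and 6 for control 2. The targeted gene, Xbp1, stood at 6087 and 5953 normalized counts in the mutants and 5521 and 7378 in the controls, a log2 fold change of -0.08 ± 0.21 (standard error; limma adjusted p = 0.852), so it gave no check of the labels. All directions below are therefore between the libraries as they are labelled, and would turn round if the labels were exchanged. The paper lists cecB, cecC, mtk, dro and dipt among genes raised in the mutants. In the libraries as labelled, CecB, CecC, Mtk, Dro and Dpt had log2 fold changes of -5.01, -3.43, -2.08, -3.49 and -1.91, the opposite direction. Drs, the gene of drosomycin and not in that list, had 13048 and 1264 normalized counts in the mutants and 2685 and 2406 in the controls. Its log2 fold change of 0.68 ± 1.07 (standard error; limma adjusted p = 0.752) rested on mutant 1 alone. By other methods, qRT-PCR and a drosomycin-GFP reporter, the paper reports drosomycin as induced in mutant larvae. Whether the labels are exchanged was not tested. Of the marker lists for larval tissues, the fat body list summed to 8311499 and 11284298 in the mutants and 7268302 and 10912574 in the controls. The larval cuticle list was low, at 82.4 and 60.5 in the mutants and 58.5 and 82 in the controls. Only 3 of its 12 genes were tested. The midgut digestion list was low outside control 1, and its values are given beside CG14406.

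The members covered a wide range of levels. In the controls, the mean lay above 1000 normalized counts for 2 members, between 100 and 1000 for 10 and under 100 for the other 10. The log2 fold changes, mutant over control and on the scale of log2(normalized count + 1), lay between -5.01 and -1.91 with a median of -3.01, beside a median of -0.03 over all genes tested. Across all 10500 genes, limma called 0% lower in the mutants at an adjusted p of 0.05, though 760 had an unadjusted p under 0.05. edgeR likewise called 0%, with 718 genes at an unadjusted p under 0.05, and DESeq2 called 168 of 9930 genes, or 1.69%. Of the 22 members, limma called 0 (adjusted p between 0.131 and 0.347), although all 22 had an unadjusted p under 0.05, edgeR called 0 and DESeq2 called 19. The 3 that DESeq2 did not call were CG10486, CG5835 and CG11592, with DESeq2 adjusted p values of 0.0787, 0.143 and 0.173. Both mutant values lay under both control values in 2927 of the 10500 tested genes, or 27.9%, while the rule required this of every member. Nothing about the members is read from these calls, which rest on the values that chose them.

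**Figure D1:**
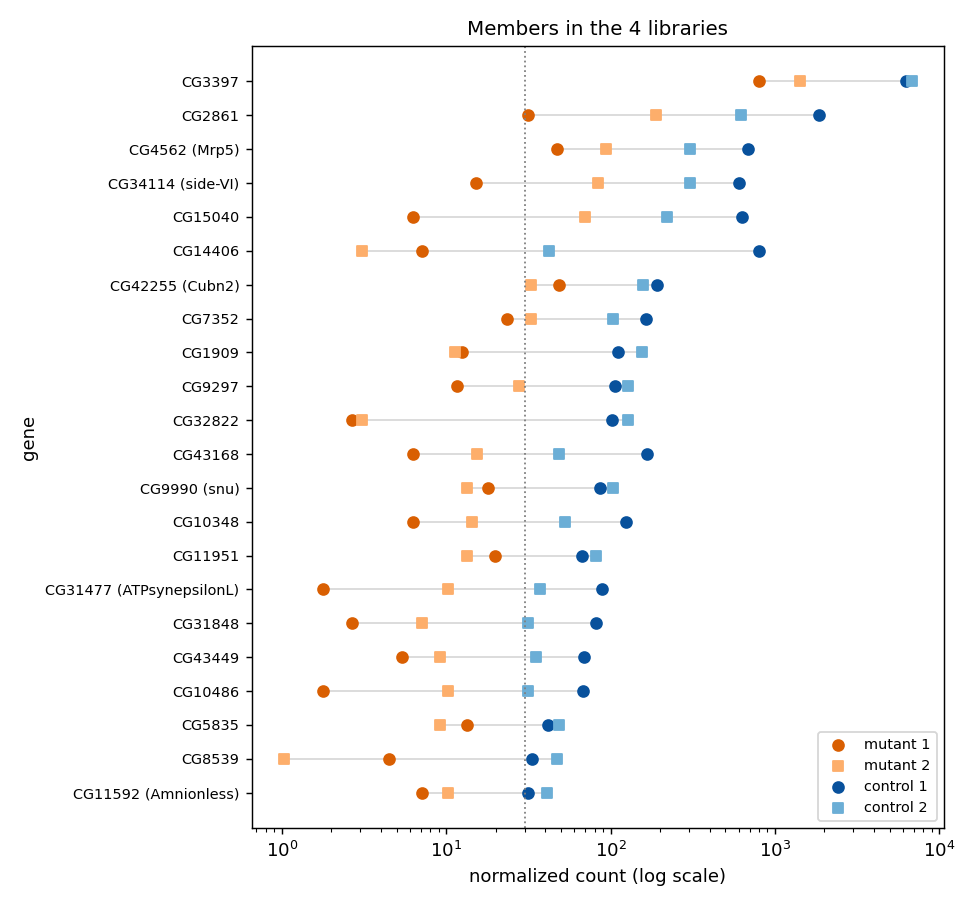
Normalized counts of the 22 members (log scale) in mutant 1, mutant 2, control 1 and control 2, ordered by the mean of the controls. Each symbol is 1 library, the dotted line marks the control minimum of 30 normalized counts, and CG3397 lies far above the others.

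The members fell into sets by the order of the 4 libraries. In 11 of them control 1 was the highest library, followed by control 2, mutant 2 and mutant 1. CG2861, on X from 4797231 to 4804862, had 31.4 and 188 normalized counts in mutants 1 and 2, against 1845 and 625 in controls 1 and 2. Each group thus held a library several times above its partner, and the gap between mutant 2 and control 2 was 3.33-fold where the means differed 11.3-fold. CG15040, on X from 18606610 to 18617589, had 6.27 and 69.7 in the mutants and 630 and 219.5 in the controls. Its log2 fold change was -4.04, and mutant 2 was 11.1 times mutant 1, the widest ratio between mutant libraries among the members.

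Named genes of known families were in the same set. CG4562, now called Mrp5, encodes a transporter of ABC subfamily C and lies on 3R from 19865417 to 19875678. It had 47.5 and 94.3 normalized counts in the mutants and 689 and 304 in the controls. CG34114, now side-VI, encodes an immunoglobulin-domain surface protein of the sidestep family and lies on 3R from 10972381 to 11050175. It had 15.2 and 84.1 in the mutants and 602 and 304 in the controls. CG31477, now ATPsynepsilonL, encodes a protein like the epsilon subunit of the mitochondrial ATP synthase, on 3R from 10121773 to 10122320. Only 1.79 and 10.3 normalized counts of it were found in the mutants, from 2 and 10 reads, against 88.2 and 37.4 in the controls. In all 3 genes the groups did not overlap, as the rule demands. By difference in normalized counts, control 2 was closer to mutant 2 than to control 1, but by ratio it was closer to control 1. Control 1 was 2.27, 1.98 and 2.36 times control 2. Control 2 was 3.22, 3.615 and 3.65 times mutant 2, a ratio that the rule sets to at least 3.

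The remaining members of that order were lower in level. CG7352 (3R, 8347579 to 8349296) had 23.3 and 32.8 normalized counts in the mutants and 165 and 104 in the controls, the narrowest ratio between controls of the set at 1.59. CG43168 (3L, 6275787 to 6277035) had 6.27 and 15.4 in the mutants and 166.5 and 48.2 in the controls, the widest at 3.45. CG10348 (2L, 18714453 to 18732524), which RefSeq also lists under the synonym PRDM16, the name of a zinc finger regulator in mammals, had 6.27 and 14.4 in the mutants and 123 and 53.1 in the controls. Control 1 was more than 2 times control 2 in both CG43168 and CG10348. CG31848 (2L, 13264996 to 13265876) had 2.69 and 7.18 in the mutants and 81.0 and 31.4 in the controls. CG43449 (3R, 11088420 to 11089356) had 5.38 and 9.23 in the mutants and 69.3 and 35.0 in the controls. CG10486 (3L, 5904211 to 5906699) had 1.79 and 10.3 in the mutants and 67.5 and 31.4 in the controls. These last genes rested on 2 to 10 reads in each mutant library, so their folds carry a large counting error.

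In the other 11 members the order differed, and in 9 of them control 2 was the higher control. CG3397, an aldo-keto reductase on 3R from 11983098 to 11984541, was by far the most abundant member. It had 805 and 1418 normalized counts in the mutants and 6281 and 6840 in the controls, or 1111 ± 434 against 6561 ± 395 (SD, n = 2 each). Per kilobase of exon this was 936 in the mutants and 5527 in the controls, where the controls of the other members lay between 15.6 and 632. Control 1 was 0.918 times control 2, the closest pair of controls among the members. Its log2 fold change was -2.62 (standard error 0.30, limma adjusted p = 0.198, DESeq2 adjusted p = 2.29e-09).

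Several members of low level had controls that were close to each other. CG32822, which has no match in the annotation used, had 2.69 and 3.08 normalized counts in the mutants, from 3 reads in each library, and 102 and 128 in the controls, from 113 and 106 reads. Its lowest control was 33.1 times its highest mutant value, the largest such ratio among the members. CG1909, on chromosome 4 from 583108 to 589348, had 12.6 and 11.3 in the mutants and 111 and 154 in the controls. CG9297 (3R, 13771495 to 13779317) had 11.7 and 27.7 in the mutants and 106 and 128 in the controls. For these 3 genes the libraries of each group lay together and the groups stood apart, except that mutant 2 was 2.38 times mutant 1 for CG9297.

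An ABC transporter and a pair of peptidases were among the rest. CG9990, now snu, an ABC transporter needed for the lipid barrier of the cuticle, lies on 3R from 28675041 to 28695939. It had 17.9 and 13.3 normalized counts in the mutants and 86.4 and 104 in the controls. CG11951 (3R, 29235322 to 29238723), an aminopeptidase, had 19.7 and 13.3 in the mutants and 66.6 and 82.0 in the controls. CG8539 (3L, 7497211 to 7498831), a metallocarboxypeptidase, was close to absent from the mutants, with 4.48 and 1.03 from 5 and 1 reads, and had 33.3 and 47.0 in the controls. CG5835 (3R, 19148632 to 19153686) had 13.4 and 9.23 in the mutants and 41.4 and 48.2 in the controls, with the smallest fold of all members (log2 fold change -1.91). In each of these 4 genes control 2 was the higher control and mutant 1 the higher mutant library.

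A pair of members belongs by name to protein uptake. CG42255, now Cubn2, resembles cubilin by name, and CG11592, now Amnionless, encodes the partner that carries cubilin to the surface of nephrocytes, the filtering cells of the fly. Cubn2 (3L, 11801951 to 11814755) had 48.4 and 32.8 normalized counts in the mutants and 193 and 157 in the controls. Amnionless (2L, 287252 to 289144) had 7.17 and 10.3 in the mutants and 31.5 and 41.0 in the controls. It lies wholly within CG3625 on the same strand, where the counts were 2025 and 2370 in the mutants and 1552 and 2575 in the controls, so how reads were divided between them is uncertain. Cubn, the other cubilin gene, went the other way, with 1209 and 899 in the mutants and 499.6 and 445 in the controls, and log2 fold change 1.14 ± 0.23 (standard error; limma adjusted p = 0.33, DESeq2 adjusted p = 0.0216). Of other nephrocyte genes, looked up after the members had been seen, sns had 7.17 and 7.18 in the mutants and 28.8 and 21.7 in the controls, and Klf15 had at most 1.8 in any library. The groups overlapped in the other nephrocyte genes looked up, where kirre had 20.6 and 20.5 in the mutants and 27.9 and 13.3 in the controls and mgl had 326 and 546 in the mutants and 828 and 541.5 in the controls.

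CG14406 (X, 14909873 to 14910845) was the member whose controls differed most. It had 7.17 and 3.08 normalized counts in the mutants, from 8 and 3 reads, and 801 and 42.2 in the controls. Its log2 fold change of -5.01 was the most negative among the members, yet control 1 was 19.0 times control 2, a ratio that only 21 of the 10500 tested genes reached. CR43920, among the genes with other names, was alike, with 4.48 and 2.05 in the mutants and 367 and 37.4 in the controls. The midgut digestion list, of trypsins, Jonah proteases, amylases and lysozymes, summed to 175 and 184.5 in the mutants and 4734 and 171 in the controls. Of its 33 genes only 12 were tested, and 18 of the 33 were at 0 in control 2. Jon65Aiv, a Jonah protease, had 3.58 and 13.3 in the mutants and 2616 and 22.9 in the controls. Without it the list summed to 171 and 171 in the mutants and 2118 and 148 in the controls. Of the 12 tested genes, 6 were at least 3 times as high in control 1 as in any other library and 6 were not, among them Amy-d with 17.9 and 28.7 in the mutants and 28.8 and 27.7 in the controls. Their part in the values of CG14406 was not tested. Between control 2 and the mutants, CG14406 still differed 5.89-fold from the higher mutant value.

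By the names and families known, the members were a mixed set. Roles, or only a name that points to one, could be given for 10 of 22: 2 ABC transporters (Mrp5 and snu), 3 enzymes of small molecules or peptides (CG3397, CG11951 and CG8539), 2 genes of the cubilin system (Cubn2 and Amnionless), a cell surface protein (side-VI), a mitochondrial protein (ATPsynepsilonL) and CG10348. For CG10348 the only basis is the synonym PRDM16. For the other 12 no role is given here. All 21 members with a match in the annotation were protein coding, although 3 of them (CG43168, CG10348 and CG43449) also bear a lincRNA synonym. They were longer than other genes of their kind, with a median exonic length of 2369 bp and a median of 4 exons, against 1644 bp and 3 exons in 5324 tested CG-numbered protein-coding genes. This difference in length was not tested.

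Marker lists were set beside the members to see which tissues had the same order of libraries. The sum of 18 spermatocyte genes was 1481 and 2507 normalized counts in the mutants and 7341 and 3273 in the controls. The sum of 27 genes of late spermatids and sperm was 6354 and 15565 in the mutants and 44744 and 16477 in the controls. The 11 proteasome subunits used in testis summed to 215 and 671.5 in the mutants and 2287 and 784 in the controls. In all 3 lists control 1 was the highest library and mutant 1 the lowest, and control 2 was above mutant 2 by a smaller ratio than set either apart from its partner. That is also the order of libraries in 11 of the members. The ratio of control 1 to control 2 was 2.24, 2.72 and 2.92 in these sums, beside a median of 2.32 in those 11 members, and mutant 2 over mutant 1 was 1.69, 2.45 and 3.12, beside a median of 2.67. Control 2 over mutant 2, however, was only 1.31, 1.06 and 1.17 in the sums. The rule sets it to at least 3 in every member, and its median was 3.33 in those 11. Those 11 members thus shared the order of the lists, and the other 11 did not. The higher ratio of control 2 to mutant 2 in the members follows from the rule, so it does not compare their profile with that of the lists.

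Most single spermatocyte genes showed this order as well, 13 of the 17 tested, as did 13 of 25 genes of late spermatids and 7 of 11 proteasome subunits. It did not hold in topi, twe, bol and fzo, and twe, for example, had 86.0 and 190 normalized counts in the mutants and 413 and 158 in the controls. The regulator aly had 3.58 and 21.5 normalized counts in the mutants and 185 and 68.7 in the controls, and itself met the rule among the genes with other names. Rbp4, an RNA-binding protein of spermatocytes, had 8.96 and 89.2 in the mutants and 585 and 224 in the controls. Of the 17 tested genes of the spermatocyte list, limma called 0 lower (11 had an unadjusted p under 0.05) and DESeq2 called 7, with a median log2 fold change of -2.14. The medians were -1.41 for 25 tested genes of late spermatids and -1.72 for the 11 proteasome subunits, where 1 and 3 genes had an unadjusted limma p under 0.05 and neither limma nor DESeq2 called any. Genes of the Y needed for male fertility summed to 51.1 and 193 in the mutants and 530 and 209 in the controls. The part of testis RNA in the members' values was not tested, and the same order held in 1895 of the 2927 genes (64.7%) whose mutant values both lay under both control values.

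**Figure D2:**
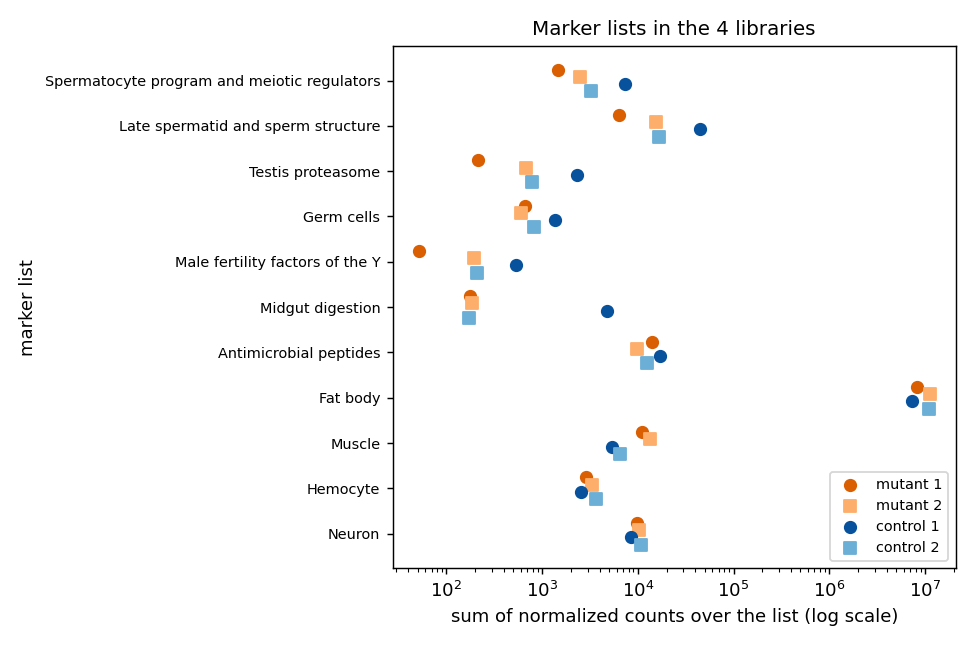
Sums of normalized counts over marker lists (log scale) in mutant 1, mutant 2, control 1 and control 2. The testis lists have control 1 highest and mutant 1 lowest, and the sum of the midgut digestion list is high in control 1 alone. The muscle sum is higher in both mutants and is carried by bt, though several other genes of that list are also higher in both mutants.

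Most other lists had other orders of libraries, but the antimicrobial peptide list had the order of the testis lists once Drs was left out. The muscle list summed to 11035 and 13552 normalized counts in the mutants and 5376 and 6454 in the controls, with a median log2 fold change of 1.04. Its sum was carried by bt, a giant muscle protein. Without bt the sum was 2713 and 3151 in the mutants and 2947 and 2760 in the controls, which overlapped. Act57B, Mlc1, Mlc2, up, Tm2 and TpnC73F, like bt, had both mutant values above both control values. Mlc2, for example, had 105.7 and 149.7 in the mutants and 30.61 and 39.8 in the controls. The groups overlapped in Mhc, wupA, Tm1 and sls, and only sls had a negative log2 fold change (-0.882). Of the 11 genes limma called 0, and DESeq2 called bt and Mlc2 higher. Genes of dosage compensation, the male-specific control of the X, did not follow the testis lists, with sums of 12454 and 18785 in the mutants and 13154 and 20384 in the controls, and roX1 had a log2 fold change of -0.08. The hemocyte list was at 2858 and 3291 in the mutants and 2572 and 3655 in the controls, and the groups overlapped. The neuron list overlapped as well, at 9784 and 10242 in the mutants and 8388 and 10896 in the controls. That sum was mostly Syt1. Without Syt1 it was 347 and 304.5 in the mutants and 255 and 252 in the controls, which did not overlap. General germ cell genes summed to 669 and 606 in the mutants and 1361 and 826 in the controls. The antimicrobial peptide list summed to 14120 and 9818 in the mutants and 17023 and 12359 in the controls, an overlap that rests on Drs in mutant 1, since without Drs the sums were 1072 and 8554 in the mutants and 14338 and 9953 in the controls. Without Drs these sums had the library order of the testis lists, and 5 of the 12 tested genes of the list had it singly. The median log2 fold change of the 12 was -2.15, and 6 of them had both mutant values under both control values. limma called 0 of them (5 had an unadjusted p under 0.05) and DESeq2 called 3 lower, CecB, CecC and Dro, which also met the selection rule. CecB, a cecropin, had 3.58 and 7.18 normalized counts in the mutants, as labelled, and 528 and 72.4 in the controls.

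The spread between the 2 controls was large for the members as a whole. Control 1 exceeded control 2 in 13 members, by 1.23 to 19.0 times with a median of 2.32. This was 59.1% of the members, against 52.5% of all genes tested and 82.4% of the genes whose mutant values both lay under both control values. It exceeded control 2 by at least 1.5 times in 12 of them. In the 9 members with control 2 higher, control 1 was 0.708 to 0.918 times control 2, so these controls never differed by more than 1.5 times. The median log2 ratio of control 1 to control 2 was 0.81 over the members and 0.04 over all genes tested. It was 0.17 over the CG-numbered genes tested and 0.97 over the 20 genes with other names that met the same rule. Ratios of opposite sign cancel in these medians, so they do not measure spread alone. Without regard to sign, the median size of this log2 ratio was 0.815 over the members and 0.427 over all genes tested. By that measure it was 0.522 over the CG-numbered genes tested and 1.23 over the genes with other names that met the rule. Mutant 2 exceeded mutant 1 in 15 members, or 68.2%, against 53.5% of all genes tested and 74.1% of those with both mutant values under both control values. The median log2 ratio of mutant 2 to mutant 1 was 0.75, beside 0.04 over all genes tested and 0.98 over the genes with other names that met the rule. Without regard to sign, its median size was 0.989 over the members and 0.317 over all genes tested. Leaving out a library can only add genes to those that meet the rule. It was met by 29 genes without mutant 1, 423 without mutant 2, 32 without control 1 and 674 without control 2. The median log2 fold change of the 22 was -2.38 without mutant 1 and -2.61 without control 1.

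**Figure D3:**
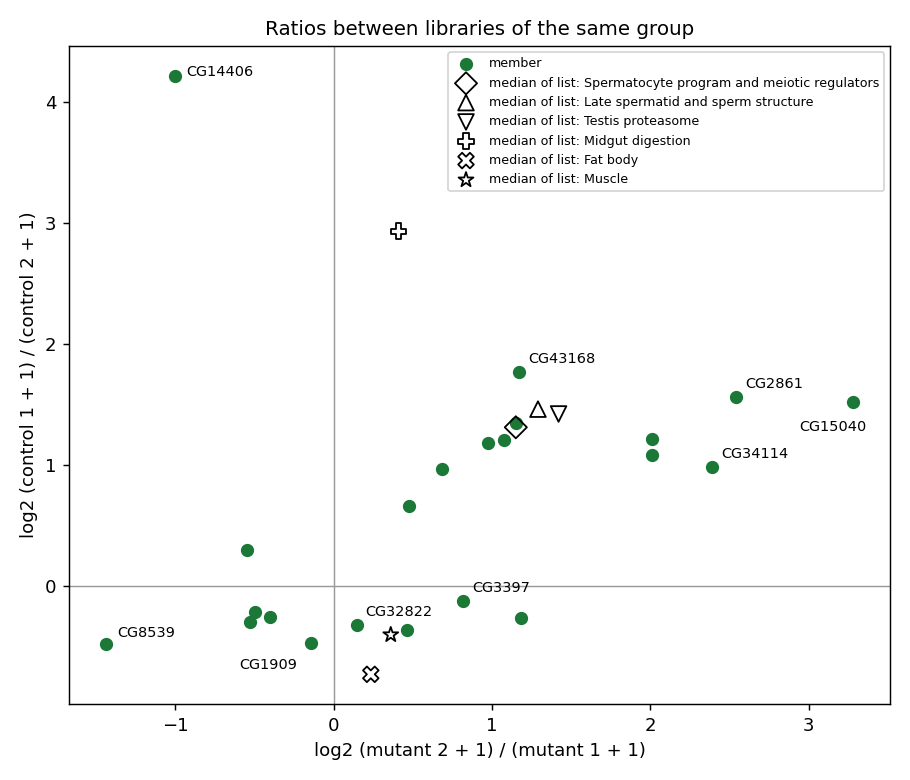
Log2 ratio of mutant 2 to mutant 1 (x axis) against log2 ratio of control 1 to control 2 (y axis), each with 1 added to the normalized counts, for the 22 members and for the medians of 6 marker lists. The members at the upper right, where the medians of the testis lists lie, are the 11 with control 1 above control 2 and mutant 2 above mutant 1, while CG14406 lies alone near the top.

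Of the 21 members placed on the genome (build dm6), 10 lay on 3R, or 47.6%, where 24.8% of tested CG-numbered genes lie. Another 4 were on 3L, 3 each on X and 2L, and 1 on chromosome 4. None was on 2R, the arm of 19.4% of tested CG-numbered genes. Only side-VI and CG43449 were next to each other among tested genes, 38244 bp apart. On their far sides lay Tengl4, a gene named for its likeness to endonuclease G, and SdhCL, named for its likeness to a subunit of succinate dehydrogenase. Tengl4 had 20.6 and 51.3 normalized counts in the mutants and 254 and 83.2 in the controls, and SdhCL had 31.4 and 67.7 in the mutants and 257.5 and 130 in the controls. All 4 adjacent genes had control 1 highest and mutant 1 lowest.

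The other members had 38 tested neighbours that are not members, and 15 of them (39.5%) had both mutant values under both control values, beside 27.9% of all genes tested. Their median log2 fold change was -0.23, and it was under -1 in 8 of them (21.1%), beside 17.2% of all genes tested. Neighbours lower in both mutants included PXo beside CG10486 (log2 fold change -2.20), CAH7 beside CG31477 (-1.70), CG31730 beside CG31848 (-1.62) and Cyp4d8 beside CG8539 (-1.56). CG12224, the neighbour of CG3397 at 1035 bp and likewise an aldo-keto reductase, went the other way. It had 6746 and 4363 normalized counts in the mutants and 2809 and 2172 in the controls, and its log2 fold change was 1.13 ± 0.28 (standard error; limma adjusted p = 0.347). ImpL3, which encodes lactate dehydrogenase and lies beside CG43168, had 573.5 and 80.0 in the mutants and 43.2 and 15.7 in the controls. CG31445, beside CG11951 and also an aminopeptidase, had 44.8 and 112 in the mutants and 259 and 105 in the controls, where the groups overlapped.

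**Figure D4:**
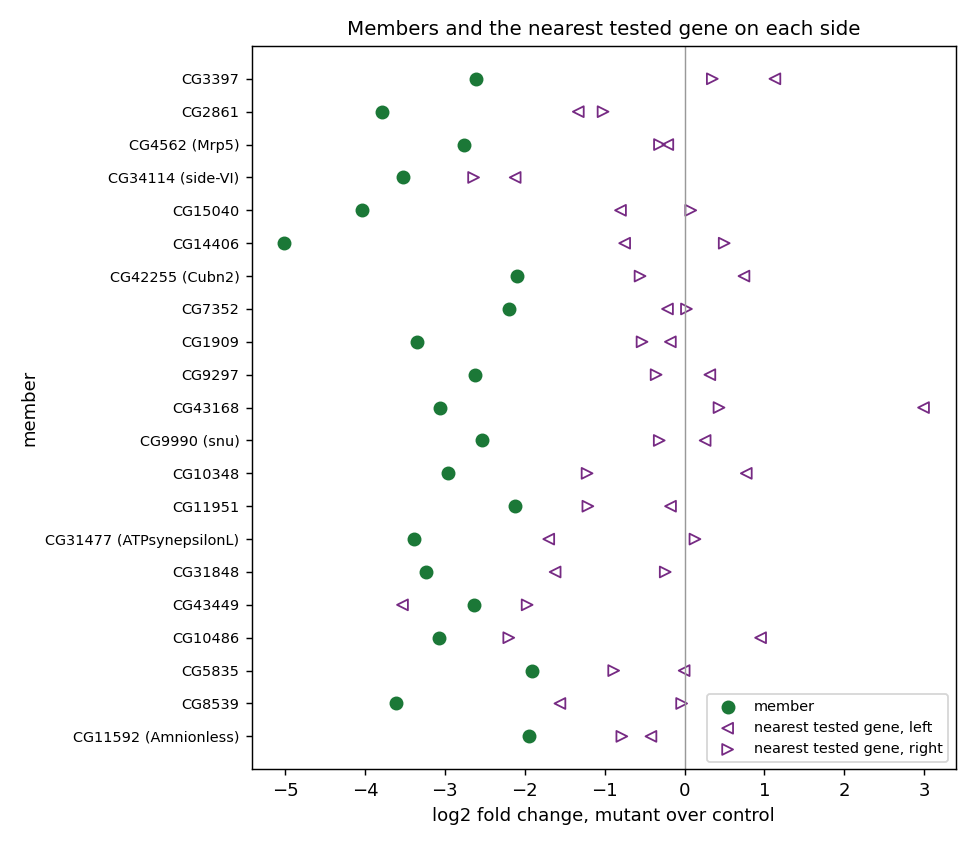
Log2 fold change, mutant over control, of 21 members and of the nearest tested gene on the left and the right of each. The members lie between -5.01 and -1.91 by selection, and most neighbours lie nearer to 0. CG34114 and CG43449 are each other's neighbours, so each also appears as a triangle in the other's row.

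Overlapping genes limit some of the values, since the strand setting of the counting is not given in the sources used here. Of the 21 placed members, 11 overlap an annotated gene or element. Mrp5 shares 1453 bp with CG4686 on the opposite strand, which had 59.1 and 102.5 normalized counts in the mutants and 327 and 170 in the controls. CG14406 lies within Flo2 on the opposite strand, where the counts were 446 and 440 in the mutants and 296 and 406 in the controls. CG31848 lies within CG44085, also on the opposite strand, with 47.5 and 39.98 in the mutants and 50.4 and 30.2 in the controls. CG4686 was thus lower in the mutants like Mrp5, whereas Flo2 was not lower and CG44085 overlapped between the groups.

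Many members lay close to the limits of the rule. The lowest control was under 4 times the highest mutant value in 15 of 22, and over 5 times in 4. Just inside on this ratio were CG10486 at 3.06, CG11592 at 3.07, CG5835 at 3.08, CG43168 at 3.14 and CG15040 at 3.15. Just outside were CG33926 at 2.96, CG7213, CG30401 and CG5440 at 2.94 each, and CG6220 at 2.86. CG33926 was well expressed, with 184 and 254 normalized counts in the mutants and 753.5 and 1150 in the controls. On the control minimum, CG10486 and CG31848 at 31.4, CG11592 at 31.5, CG8539 at 33.3 and CG43449 at 35.0 were just inside. CG14810 and CG14898 at 28.9, CG34301 at 27.7, CG15142 at 26.5 and CG4318 at 25.3 were just outside. In the opposite direction, 42 CG-numbered genes had both mutant values at least 30 and at least 3 times both control values.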

How the data were processed

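Total RNA of larvae, second-instar according to the paper, was depleted of ribosomal RNA and made into stranded libraries, 2 for each genotype. Alignment to dm6 by the authors used TopHat2 2.1.1, counting used HTSeq 0.6.1 and normalization used DESeq2 (version not given in the sources used here). The deposited signal is the normalized count, meaning reads over a size factor that is set per library. All values (100%, within 0.01 reads) were whole multiples of a step per library, which gave back the reads. At these depths 3 reads correspond to 2.69 to 3.62 normalized counts, a floor for counting error alone.

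Mutants were set against controls with limma 3.58.1 (R 4.3.3; intensity trend) on log2(normalized count + 1) for 10500 genes averaging at least 10. P-values were adjusted by Benjamini-Hochberg and called at 0.05. Alternatives on the recovered reads were edgeR 4.0.16 and DESeq2 1.42.0. An exact two-sided permutation test with 2 libraries a group reaches no p below 0.333. The p-values measure the spread between 2 extractions of a genotype. The tests were checked on simulated data. Gene names were looked up in Ensembl's dm6 annotation, where 11817 matched exactly, 3239 by a synonym and 284 not at all. The marker rye was not matched. The members, marker lists and alternatives were chosen with earlier results of these data known. Per-library values were given for all members, and genes outside the members and marker lists were named for their position, the same rule or the limits of the rule. Sequences were not analysed here.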

Additional observations from a re-analysis of the deposited data

How the results depend on the processing

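The sign of the members' fold changes is fixed by the rule and says nothing of stability, and a mean filter of at least 50 left 13 with a value. limma called 2 of the 22 after scaling all libraries to equal totals, 6 without mutant replicate 2 and 0 under its other settings, the crossed pairing aside. That scaling gave 4 genes lower and 10 higher in the mutants, DESeq2 gave 168 and 178, and using no filter gave 3 higher, against 0 lower and 1 higher in the comparison reported. A replicate block left 0 genes lower and 0 higher by limma, and called no member (adjusted p between 0.463 and 0.528). Same-numbered libraries deviated in opposite directions (correlation -0.443 across genes), and a crossed pairing, chosen after seeing the data, gave 1410 lower and 390 higher. Leaving out each library gave 0 to 103 lower (103 without mutant replicate 2) and 0 to 34 higher. The number of members was 38 with a control minimum of 10, 10 with 100, 83 with a ratio of 2 and 7 with a ratio of 4. Rescaling gave 25, of which 19 were among the 22, and TMM factors gave 23 with all 22. Without 1 library there were 29 to 674 (423 without mutant replicate 2, 674 without control replicate 2). A pseudocount of 8 moved the median log2 fold change to -2.27, against -3.01. The fold change of Xbp1 ranged between -0.29 and 0.12 with a library left out, and was 0.12 without control replicate 2. Depth limits the members with 1 to 10 mutant reads. The causes were not tested.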
